A study of Mus musculus with 2 samples.

Results

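The peaks described here are the 12442 regions of 1 anti-GFP chromatin immunoprecipitation library, library 1, whose summits lie between 3 and 6 Mb on mouse chromosomes 1 to 19. They were chosen by position only, from 584724 peaks of that library, of which 576675 are on autosomes. The starting material was frozen E10.5 heads, from mouse embryos in the midst of organ formation, and the antibody, sc-9996, recognises green fluorescent protein (GFP). Library 2, made from the same tissue with the same antibody, has 348 peaks, of which 6 lie in these windows. The labels name no genotype, sex, litter, treatment or contrast for either library, nor the protein that carries GFP, and the title of the series concerns the core histone variant H3.2 in the eye. They do not say whether the libraries come from separate embryos. Every p-value below therefore describes positions within library 1, with no replicate check.

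Mouse autosomes carry their centromere at one end. In the mm10 assembly that end has the lowest coordinates and is left as a gap, so the first assembled bases follow the unassembled satellite repeats of the centromere. No library 1 peak on an autosome had a summit below 3 Mb, where the windows begin. The first summit of a window lay between 3002138, on chromosome 7, and 3130795, on chromosome 10. Where the gap ends on each chromosome was not analysed, so a window can include bases in which no peak could be placed. A histone variant is laid down along chromatin as part of nucleosomes, and chromatin close to the centromere includes compacted heterochromatin as well as ordinary gene-bearing chromatin. GFP is a tag that an antibody can pull down with the protein and the DNA bound to it, and a peak is a stretch where sequenced fragments pile up above a background.

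The windows differ most in how many peaks they hold, so 4 promoters are printed, 2 from peak-dense and 2 from peak-sparse windows. They were chosen after their values were seen. Each is the RefSeq promoter of build GRCm38.p6, from 250 bases before the annotated start to 50 after it, in the direction of transcription. Capitals mark the bases within 10 of a library 1 summit, 21 in all except for Hormad2, whose summit lies at the edge of the printed stretch and leaves 13. Hormad2, a protein of the meiotic chromosome axis, is at chr11:4441033-4441332 on the minus strand. Pomc, the precursor of adrenocorticotropin and other pituitary hormones, is at chr12:3954695-3954994 on the plus strand. Gria4, a subunit of AMPA glutamate receptors, is at chr9:4796185-4796484 on the minus strand. Mroh2b, a member of the maestro heat-like repeat family, is at chr15:4898487-4898786 on the plus strand.
Hormad2: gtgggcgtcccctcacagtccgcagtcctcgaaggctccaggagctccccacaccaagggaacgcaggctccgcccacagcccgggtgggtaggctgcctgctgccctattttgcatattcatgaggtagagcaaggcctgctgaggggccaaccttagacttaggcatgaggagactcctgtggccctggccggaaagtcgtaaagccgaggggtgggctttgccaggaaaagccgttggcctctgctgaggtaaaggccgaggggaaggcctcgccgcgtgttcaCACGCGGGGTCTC
Pomc: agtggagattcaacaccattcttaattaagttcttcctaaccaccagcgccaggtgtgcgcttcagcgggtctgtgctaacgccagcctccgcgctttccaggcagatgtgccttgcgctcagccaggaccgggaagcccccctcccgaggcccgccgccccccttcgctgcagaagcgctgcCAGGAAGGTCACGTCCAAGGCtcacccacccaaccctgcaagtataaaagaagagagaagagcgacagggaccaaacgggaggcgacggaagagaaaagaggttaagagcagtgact
Gria4: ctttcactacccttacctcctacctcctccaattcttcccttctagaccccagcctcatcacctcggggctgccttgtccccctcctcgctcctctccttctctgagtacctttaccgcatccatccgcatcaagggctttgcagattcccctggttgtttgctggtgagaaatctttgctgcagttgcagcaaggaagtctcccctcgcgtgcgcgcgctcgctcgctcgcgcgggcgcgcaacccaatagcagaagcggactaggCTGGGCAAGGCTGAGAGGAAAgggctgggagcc
Mroh2b: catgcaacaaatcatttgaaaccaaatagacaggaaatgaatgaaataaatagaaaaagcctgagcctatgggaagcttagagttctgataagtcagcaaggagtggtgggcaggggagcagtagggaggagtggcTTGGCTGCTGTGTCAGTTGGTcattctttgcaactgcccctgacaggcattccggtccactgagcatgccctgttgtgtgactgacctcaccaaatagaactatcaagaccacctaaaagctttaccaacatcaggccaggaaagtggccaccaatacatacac
The fold enrichment of the marked peak was 5.39 at Hormad2, 4.85 at Pomc, 5.12 at Gria4 and 4.58 at Mroh2b. These folds describe the chosen promoters only. The G and C content of the stretches was 63.3% for Hormad2, 59.0% for Pomc, 59.7% for Gria4 and 47.0% for Mroh2b. Searched on both strands, TATAAA was found in Pomc only, and CCAAT in Gria4 and Mroh2b. Among 20063 autosomal promoters of the same length, 12.7% hold TATAAA and 38.1% hold CCAAT.

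Pooled over 57 Mb, the windows held 218 peaks per Mb, against 240.5 per Mb over the rest of the autosomes. They held more protein-coding genes, 10.6 against 8.50 per Mb, while a similar share of their bases lay in such genes, 39.4% against 40.9%. The pooled values hide a wide spread between chromosomes, shown in the plot of peak density at 3 to 6 Mb and on the rest of each autosome. The sparsest window, on chromosome 3, held 262 peaks or 87.3 per Mb, and the densest, on chromosome 19, held 1663 peaks or 554 per Mb.

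**Figure D1:**
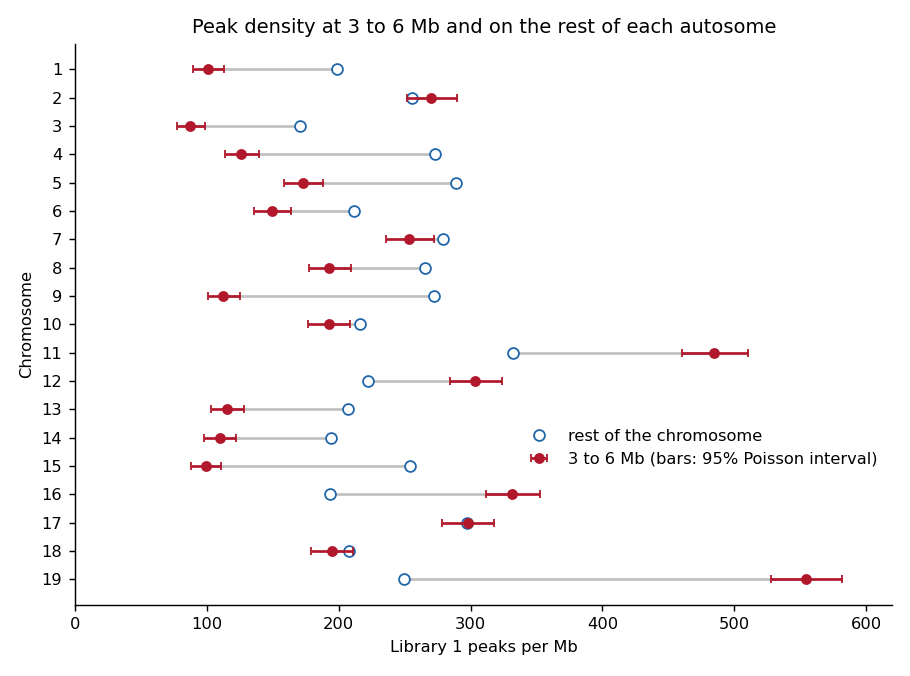
Library 1 peaks per Mb (x axis) for each of the 19 autosomes (y axis), in the 3 to 6 Mb window (filled, bars are 95% exact Poisson intervals that cover counting error only) and on the rest of the chromosome (open). The window lies below the rest on 13 chromosomes and above it on 6, from 87.3 per Mb on chromosome 3 to 554 per Mb on chromosome 19.

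A 2-sided exact binomial test with Benjamini-Hochberg adjustment over 812 tiled 3 Mb windows called 12 of the 19 windows sparser than the rest of their chromosome and 4 denser. Over all 812 windows the test called 55.4% sparser and 37.7% denser, beside 63.2% and 21.1% of the 19 windows, and these shares were not tested against each other. The test takes in counting error only, and neighbouring windows are not independent. The 3 windows without a call are on chromosome 2 (270.3 against 256 per Mb), chromosome 17 (298 against 297 per Mb) and chromosome 18 (195 against 208). The densities of those 3 were 1.06, 1.0 and 0.936 times the rest, with intervals that include 1.

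Chromosomes 19, 16, 11 and 12 had the dense windows. Chromosome 19 held 554 peaks per Mb at 3 to 6 Mb against 249.6 on its rest, a ratio of 2.22 (95% interval 2.11 to 2.34). Chromosome 16 held 332 against 193, a ratio of 1.72 (1.61 to 1.83). Chromosome 11, whose rest had the highest density of any autosome at 332 per Mb, reached 485 in the window, a ratio of 1.46 (1.39 to 1.54). Chromosome 12 held 304 against 222, a ratio of 1.37 (1.28 to 1.46). These 4 windows made up 21.1% of the length described and held 40.4% of its peaks and 40.6% of its protein-coding genes. They were not the densest places of their own chromosomes: counted from the sparsest complete window, they ranked 18 of 19 on chromosome 19, 24 of 31 on chromosome 16, 33 of 39 on chromosome 11 and 30 of 39 on chromosome 12.

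At the other end, 8 windows held fewer than 0.6 times the density of the rest of their chromosome. Chromosome 15 had the lowest ratio, 0.389 (0.346 to 0.437), from 99.0 against 254 peaks per Mb. It was followed by chromosome 9, at 0.413 (0.370 to 0.460) from 112 against 272 per Mb, and by chromosome 4, at 0.461 (0.416 to 0.511) from 126 against 273 per Mb. The ratio was 0.507 on chromosome 1, 0.511 on chromosome 3, 0.555 on chromosome 13, 0.566 on chromosome 14 and 0.597 on chromosome 5. Together these 8 windows held 2768 peaks, 22.2% of the total. The chromosome 9 window ranked 2 from the sparsest of its 40 complete windows. That of chromosome 15, with the lowest ratio, ranked 10 of 33. The others ranked 9 of 39 on chromosome 13, 13 of 52 on chromosome 3 and 14 of 40 on chromosome 14. On chromosomes 4, 1 and 5 the ranks were 16 of 51, 17 of 64 and 19 of 49. Apart from chromosome 9, a low ratio thus did not place a window at the bottom of its chromosome. The windows of chromosomes 6, 7, 8 and 10 were also called sparser, with ratios from 0.706 on chromosome 6 to 0.908 on chromosome 7.

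A quasi-Poisson fit over the 812 windows, with a term for chromosome, carries the spread between windows, which was 319 times the counting variance. In that fit the first window had 0.901 times the density of later windows, with a 95% interval from 0.656 to 1.24 (p = 0.522, n = 812 windows). The difference was smaller than the spread between windows of the same chromosome. Peak numbers of the 19 first windows ran from 262 to 1663 with a median of 577, and those of 774 later complete windows from 134 to 2880 with a median of 564.5.

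Gene density followed peak density across the windows, in part. The chromosome 19 window held 118 protein-coding genes, 39.3 per Mb against 10.6 on the rest, and the chromosome 3 window held 3 genes, 1.0 per Mb against 6.37. Over the 19 windows, peaks per Mb and genes per Mb had a Pearson r of 0.75 and a Spearman rho of 0.65, given as a description because the points share 1 library. Without chromosomes 7 and 19 the values were 0.66 and 0.57. The 4 dense windows were all richer in genes than their rest, and 10 windows had both fewer genes and fewer peaks. The remaining 5 did not pair up in this way. Chromosomes 2 and 17 had fewer genes per Mb than their rest and as many or more peaks. Chromosomes 7, 8 and 14 had more genes and fewer peaks.

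**Figure D2:**
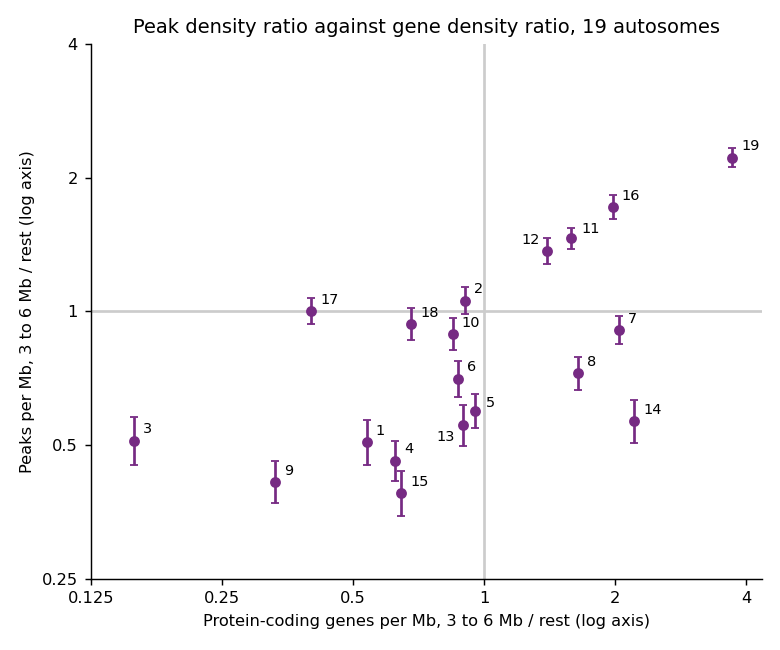
Ratio of library 1 peaks per Mb (y axis, log scale, bars are 95% exact intervals for counting error) against the ratio of protein-coding genes per Mb (x axis, log scale), each as the 3 to 6 Mb window over the rest of the chromosome, with 1 point per autosome. Chromosomes 19, 16, 11 and 12 lie above 1 on both axes, while chromosomes 7, 8 and 14 lie above 1 for genes and below 1 for peaks.

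With log2 of genes per Mb plus 1 added to the fit, the first windows had 0.80 times the density of later windows (95% interval 0.643 to 0.995, p = 0.0445, quasi-Poisson fit, n = 812 windows). In the same fit each unit of log2 gene density went with 1.51 times as many peaks (1.47 to 1.56). The call was lost without the chromosome 14 window alone, at 0.830 (p = 0.0989, n = 811 windows), an alternative chosen after seeing the data. It was also lost with the share of bases in genes as the measure of gene content, at 0.939 (p = 0.640, n = 812 windows), and on leaving out chromosome 1, 4, 5, 6, 7, 8, 9, 13, 14 or 15, over a range of 0.771 to 0.830 for all 19 left out in turn. A window of 3 to 9 Mb gave 0.859 (p = 0.125, n = 19 first windows) and a rest without the last complete window gave 0.809 (p = 0.0543, n = 19 first windows). Leaving out single chromosomes thus moved the p-value across the threshold and left the ratio close to 0.80, whereas the measure of gene content moved the ratio itself.

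The chromosome 14 window held 45 genes, 15 per Mb against 6.78 on the rest, and 110 peaks per Mb against 194. Its genes are predicted ones with Gm numbers and Rik names. A peak lay within 1 kb of an annotated end in 21 of the 45, beside 82.3% of all autosomal protein-coding genes, and 20 held no summit in their body, beside 11.1% of all. How far such genes share sequence and reads was not tested, and the mapping settings are not given in the sources used here, so their values are uncertain. Chromosome 7 held 85 genes and 253 peaks per Mb against 279. The 14 vomeronasal receptor genes of the windows, which encode pheromone receptors of the accessory olfactory system and lie on chromosomes 4, 7 and 18, had no summit inside them. Only Vmn1r56 had a peak within 1 kb of an end, at a fold of 5.92. They are short, with a median length of 0.933 kb. Of 1373 autosomal genes under 1 kb, 35.5% had a peak at an end and 69.8% held no summit inside. Sharing of reads within this family was not tested either.

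In the chromosome 17 window 14 genes lay among 298 peaks per Mb, at 63.8 peaks per gene. Many of these peaks fell in long genes that lie mostly in its last Mb. Arid1b, a subunit of BAF chromatin remodelling complexes, held 215 summits over 353 kb. Zdhhc14, a palmitoyltransferase, held 128 over 261 kb. In the chromosome 2 window, where 67.8% of bases lay in genes against 45% on the rest, Frmd4a held 131 summits over 596 kb and the calcium/calmodulin-dependent kinase gene Camk1d held 126 over 421 kb.

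Peaks were denser inside protein-coding genes than outside them, 308 against 160 per Mb pooled over the windows, and 321 against 185 on the rest. The order held on the rest of all 19 chromosomes but in 15 of the 19 windows. The exceptions were chromosome 1 (99.4 per Mb in genes, 101 outside), chromosome 3 (51.7 and 92.3), chromosome 9 (85.4 and 126) and chromosome 14 (99.5 and 116). In the 8 windows with a ratio under 0.6 the pooled densities were 125 in genes and 112 outside. In the 4 windows with a ratio over 1.3 they were 510 in genes and 304 outside, so both compartments were denser there. The groups were formed from the density of these same peaks, so these values are not independent of the grouping.

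Within the windows, peaks were unevenly spread. The mean density was 196 ± 106 per Mb (SD over 19 chromosomes) in the first Mb, 233 ± 155 in the second and 225 ± 180 in the third. The third Mb was above the first on 10 chromosomes and below it on 9, so there was no shared direction with distance from the start of the window. On chromosome 17 the counts ran 165, 150 and 578 from the first Mb to the third. On chromosome 8 they ran 287, 215 and 76, on chromosome 13 191, 87 and 67, and on chromosome 7 232, 405 and 123. The first 0.5 Mb held 174 ± 78.8 peaks per Mb (SD, 19 chromosomes), with any unassembled bases counted in the length. Over the first 30 Mb the mean of a 0.5 Mb bin fell as low as 118 and rose to 321, as the plot of peak and gene density over the first 30 Mb shows.

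**Figure D3:**
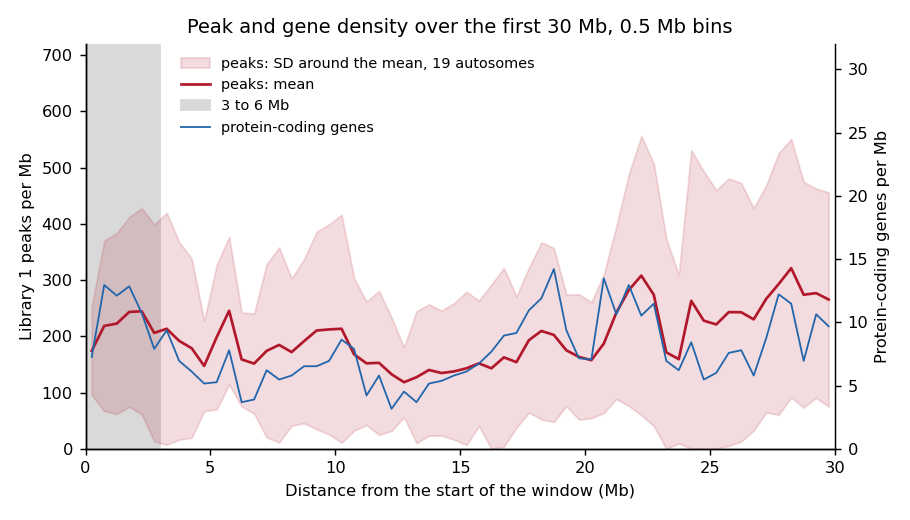
Mean library 1 peaks per Mb over the 19 autosomes in 0.5 Mb bins (red line, left axis, with a band of 1 SD drawn down to 0) and protein-coding genes per Mb (blue line, right axis) against distance from the start of the window in Mb. The shaded 3 to 6 Mb window begins at 174 peaks per Mb, and the SD between chromosomes is wide along the whole stretch.

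At a finer scale, 2 of 570 bins of 100 kb held no summit, the first bins of chromosomes 10 and 11. Whether these 2 bins hold assembled bases was not analysed. The fullest bin, chr19:3900001-4000000, held 100 summits and 8 genes with bases in it. These were Tcirg1, a subunit of the osteoclast proton pump, Ndufs8, a subunit of mitochondrial complex I, the aldehyde dehydrogenase genes Aldh3b1, Aldh3b2 and Aldh3b3, Unc93b1, which carries Toll-like receptors to endosomes, Acy3 and Tbx10. Next came chr19:4100001-4200000 with 90 summits, around genes such as Coro1b and Ppp1ca. The bin chr11:5100001-5200000, from Rhbdd3 to the start of Kremen1, held 86, and chr16:5100001-5200000, with Ppl, Sec14l5 and Nagpa, held 83. The bin chr11:4200001-4300000, with the cytokine genes Osm and Lif and the amino-acid sensor gene Castor1, held 81. All 5 of the fullest bins thus lay in the dense windows of chromosomes 11, 16 and 19, which are called dense from these same summits.

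**Figure D4:**
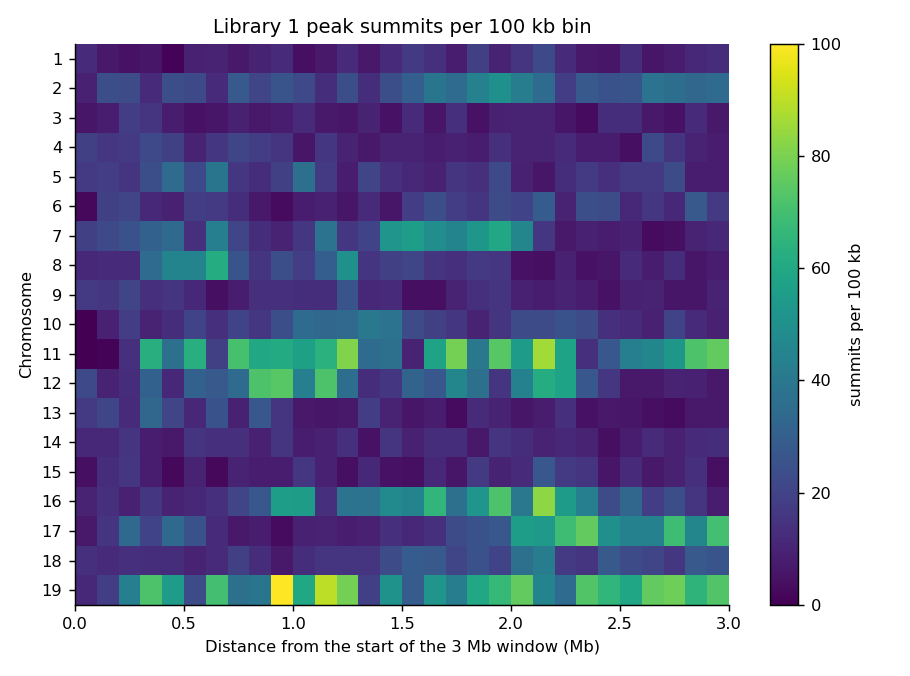
Number of library 1 summits in each 100 kb bin (colour, 0 to 100) by distance from the start of the 3 Mb window in Mb (x axis) and chromosome (y axis). Full bins form blocks, for instance in the last Mb of the chromosome 17 window and through most of the chromosome 19 window. Chromosomes 1, 3, 4 and 14 hold no more than 22 summits in any bin.

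Peak width differed little. The median width was 204 bp in the windows and 201 bp on the rest, and the widths ran from 119 to 2358 bp against 119 to 8736 bp. Peaks of at least 500 bp made up 8.26% against 7.80%. A linear model of window medians put the first windows 4.27 bp wider (95% interval 3.30 bp narrower to 11.8 bp wider, p = 0.268, n = 811 windows with at least 20 peaks). On single chromosomes the median was higher than on the rest in 10 and lower in 9. Chromosome 19 stood highest, at 247 bp against 198 bp, and chromosome 5 lowest, at 178 bp against 207 bp.

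The 3 widest peaks of the windows were of moderate fold. The widest, chr7:3108287-3110644, was 2358 bp wide with a fold of 4.58 and lay in the pseudogene Gm7353. The next, chr19:3629344-3631304, was 1961 bp wide with a fold of 3.66 and lay inside Lrp5, a Wnt co-receptor. The one at chr13:4981969-4983898 was 1930 bp wide with a fold of 5.92 and lay between genes.

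The fold, which the authors' caller gave each peak, is the summit pileup over the local background, each with 1 added. Its median was 3.90 in the windows and 3.90 on the rest, and its mean 4.02 in both. The model of window medians gave a difference of -0.02 (95% interval -0.08 to 0.04, p = 0.440, n = 811 windows). The recovered median pileup, the number of overlapping extended reads at the summit, was 15 in both. A typical peak of either set thus rests on few reads. Peaks at the genome-wide background of 2.71 reads, where no local background exceeded it, made up 68.0% in the windows and 65.9% on the rest, with a higher share than the rest in 16 of 19 windows. Taken window by window, the median share was 70.5% (quartiles 67.3% and 71.6%) in the first windows. In the 774 later complete windows it was 68.3% (65.2% and 71.8%), so the spreads overlap. None of the 12442 window peaks had a background above 10 times the genome-wide value, against 19 of 564233 peaks (0.0034%) on the rest. At that share the absence from the windows cannot be told apart from the rest.

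Mean fold and density ran in opposite directions across the windows. The mean fold was 4.29 on chromosome 1 and 4.27 on chromosome 3, the latter the sparsest window, and 3.96 on chromosome 19. Over the 19 windows r was -0.71 and rho -0.85, and without chromosomes 11 and 19 they were -0.81 and -0.85. The same pattern was present over the 774 later complete windows, with r of -0.68 and rho of -0.82, so it was not particular to the centromeric end. The group of 8 windows with a ratio under 0.6 had a mean fold of 4.14, and 44.5% of its peaks had a −log10 q of at least 5. In the 7 windows with a ratio from 0.6 to 1.3 the mean fold was 4.0 and the share 39.7%, and in the 4 with a ratio over 1.3 they were 3.97 and 40.4%. For width the relation with density (r = 0.55, rho = 0.17) rested on chromosomes 11 and 19, without which r was -0.10.

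**Figure D5:**
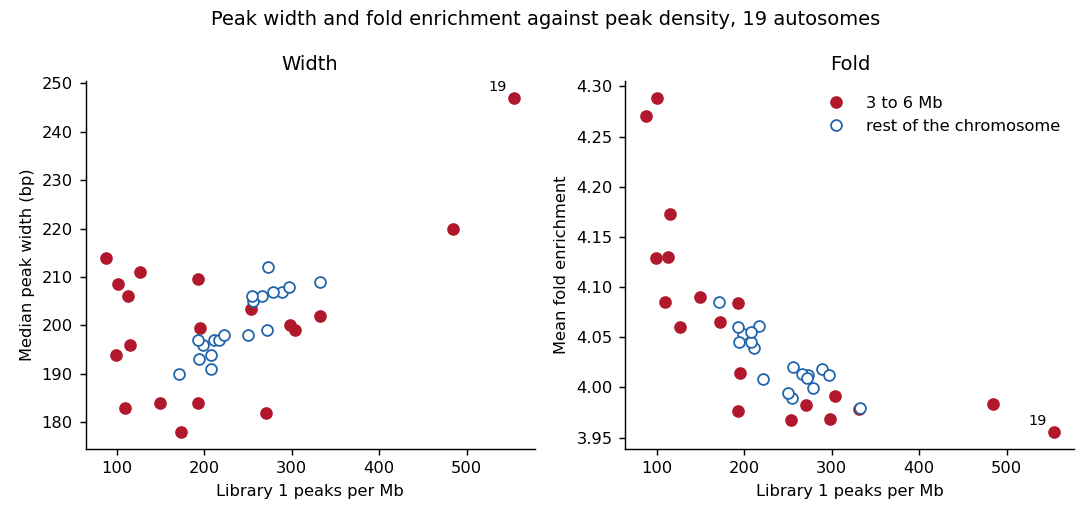
Median peak width in bp (left) and mean fold enrichment (right) against library 1 peaks per Mb, for the 3 to 6 Mb window (filled) and the rest of the chromosome (open) of each of the 19 autosomes. Chromosome 19 stands out by its width of 247 bp, and mean fold declines from 4.27 in the sparsest window to 3.96 in the densest.

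The peaks of highest fold were alike in height on all 19 chromosomes, from 7.27 to 8.62. A fold of 8.62, a pileup of 31 (95% Poisson interval 21.1 to 44.0) over the genome-wide background, was reached on 3 chromosomes. On chromosome 1 it lay at chr1:3691330-3691719, between genes and 19.7 kb from Xkr4. On chromosome 11 it lay inside Hormad2, at chr11:4404424-4404682, and on chromosome 19 inside Gm960, at chr19:4654981-4655345. Their pileup intervals overlap those of the lowest, a pileup of 26 (17.0 to 38.1) inside C7 on chromosome 15 and inside Adcy9 on chromosome 16. Among the windows whose highest peak has the genome-wide background, all but that of chromosome 4, the order is therefore within counting error.

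Of these 19 peaks, 10 lay inside a protein-coding gene. Beside Hormad2, Gm960, C7 and Adcy9, these were the ribosome-associated chaperone gene Hspa14 (fold 7.54), Akap9, which anchors protein kinase A at the centrosome (7.81), and Ppp1r12c, a subunit of myosin phosphatase (7.54). The others were Gucy1a2, a subunit of soluble guanylate cyclase (7.81), Rgs17, a regulator of G protein signalling (7.81), and Atad2b, a bromodomain protein (8.08). On chromosome 13 the peak was in the pseudogene Gm19163 and on chromosome 14 in the long non-coding RNA gene Gm51421. The other 7 were between genes. That of chromosome 4, at chr4:3229660-3229873, had the largest pileup, 59 reads (44.9 to 76.1), over a local background of 6.72, and hence a fold of 7.78. None of the 19 lay within 1 kb of the end of a protein-coding gene, where 8.06% of all window peaks lay. A further 49.6% of all window peaks lay deeper inside such genes. With 19 peaks, these counts are too few to be told apart from those shares.

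By gene context the window peaks lay more often near gene ends. Summits within 1 kb of an end of a protein-coding gene made up 8.06% (95% Clopper-Pearson interval 7.59% to 8.55%) in the windows and 6.30% (6.24% to 6.37%) on the rest. Summits between genes made up 34.1% (33.3% to 35.0%) and 35.2% (35.1% to 35.4%). Those further inside protein-coding genes were 49.6% and 50.2%, and those in other annotated genes 8.24% on both sides. Peaks that are neighbours are not independent, and the windows held more genes per Mb, as given above. Of 606 protein-coding genes in the windows, 508 had a peak within 1 kb of an end, 83.8% (95% Clopper-Pearson interval 80.7% to 86.7%), beside 82.2% of 19954 genes on the rest and 82.3% of all autosomal genes. In the dense windows nearly every gene had such a peak, 24 of 24 on chromosome 12, 40 of 41 on chromosome 16, 115 of 118 on chromosome 19 and 60 of 63 on chromosome 11. The lowest shares were in sparse windows, with 21 of 45 on chromosome 14, 10 of 19 on chromosome 13, 5 of 10 on chromosome 9 and 1 of 3 on chromosome 3. Other windows called sparser had higher shares, such as 37 of 40 on chromosome 8 and 13 of 16 on chromosome 4. Windows are called dense or sparse from these same peaks, so the shares are not independent of that grouping.

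Gene families of the windows are read against the same share of 82.3%. The aldo-keto reductase genes of chromosome 13, which reduce steroids and other carbonyl compounds, had such a peak in 2 of 9 (22.2%, 2.81% to 60.01%), with 13 summits in all. The vomeronasal receptor genes, with 1 of 14, and the predicted genes of chromosome 14, with 21 of 45, described above, were also below that share. The families that follow lay near the background. Each of the 3 Aldh3b genes of chromosome 19 had one, with 46 summits in all. The Cd209 genes of chromosome 8, lectins of immune cells, had one in 6 of 7, the zinc finger genes with Zfp names in 10 of 12, and the leukocyte and paired immunoglobulin-like receptor genes of chromosome 7 in 6 of 6. These families were grouped after their values were seen.

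Among genes of at least 10 kb lying wholly in the windows, the median was 0.312 summits per kb over 377 genes, against 0.367 over 12903 genes of that size on the rest. The highest values were 1.25 per kb in Vasn on chromosome 16, which encodes a membrane protein that binds transforming growth factor beta, and 1.21 in Aldh3b1. They were followed by Grk2 (1.19), which encodes a kinase of G protein-coupled receptors, and Aldh3b3 (1.17), both on chromosome 19. The lowest values among 52 genes of at least 100 kb, with a median of 0.200, were on chromosomes 3, 15 and 1. Hnf4g, a nuclear receptor of gut and kidney, held 5 summits over 152 kb or 0.033 per kb. Plcxd3 held 0.055, Xkr4 0.057, the homeobox gene Zfhx4 0.066 and the growth hormone receptor gene Ghr 0.072.

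Signalling genes of the windows were followed in a list of 18, of which 16 had a peak within 1 kb of an end, with folds there from 3.50 to 5.66. Esr1, the oestrogen receptor alpha, and Rgs20 had none, though Esr1 held 60 summits over 394 kb. With a −log10 q of at least 5, 11 of the 18 had a peak at an end. Of the Wnt pathway, Lrp5 held 76 summits over 102 kb, Kremen1, a receptor for Dickkopf inhibitors, held 57 over 70.2 kb, and Znrf3, a ubiquitin ligase that removes Frizzled receptors, held 28 over 169 kb. Fzd1, a Frizzled receptor on chromosome 5, held 6 over 4.38 kb, and Bambi, a decoy receptor for bone morphogenetic proteins, held 4 over 9.39 kb. Per kb, Fzd1 held 1.37 summits, Lif on chromosome 11 1.07 and Map3k11 on chromosome 19 0.969, while Znrf3, also on chromosome 11, held 0.166. The kinase genes Cdk6 and Cdk14 on chromosome 5 held 62 and 77 summits over 190.0 and 577 kb. Insr, the insulin receptor gene on chromosome 8, held 18 over 129 kb.

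Of 15 transcription factor genes, 12 had a peak at an end, all but Crem, Klf6 and Zfhx4, and 6 had one with a −log10 q of at least 5. At that threshold such a peak was present in 51.8% of the genes of the windows and 50.8% on the rest. The stricter counts of all lists are read against these shares. Crem, a cyclic AMP-responsive factor, held 3 summits over 71.4 kb, against 18 over 19.1 kb in Npas4, an activity-dependent factor of neurons on chromosome 19. Sox17, a factor of endoderm and endothelium on chromosome 1, held 2 over 6.50 kb, with a fold of 4.58 at its end. Zeb1, a repressor in epithelial-mesenchymal transition, held 37 over 184 kb. All 10 genes for chromatin proteins had a peak at an end, with folds from 2.52 to 5.92. For 2 of the 10 genes such a peak had a −log10 q of at least 5. They differed in how many peaks their bodies held. Dnmt3a, a de novo DNA methyltransferase, held 91 summits over 113 kb with a peak of fold 5.92 at an end, whereas the histone demethylase gene Kdm2a held 8 over 82.6 kb within the densest window and Asxl2 held 7 over 84.0 kb.

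The imprinted cluster of chromosome 6 and its neighbours had one at an end in 8 of 10 genes, not in Asb4 and Tfpi2, and in 2 of 10 at a −log10 q of at least 5. Peg10, a paternally expressed gene derived from a retrotransposon, held 6 summits over 13.2 kb, and the adjoining Sgce held 13 over 72.9 kb. Ppp1r9a, which binds actin and protein phosphatase in neurons, held 61 over 263 kb. Of 11 genes for mitochondrial proteins, 9 had a peak at an end, and 4 at a −log10 q of at least 5. Mrpl11, a mitochondrial ribosomal protein on chromosome 19, had the highest fold there, 8.08, and Tfb1m, a mitochondrial ribosomal RNA methyltransferase on chromosome 17, had 6.73. Mrpl15 and the poly(A) polymerase gene Mtpap had none.

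A mixed list of genes for blood, complement, retina, hormones and neuropeptides, with the caspase genes Casp1, Casp4 and Casp12, had one in 6 of 11. These were Vip, Pomc, Selenop, C7, Gal and Retn, and 3 genes had one at a −log10 q of at least 5. C6, Casp1, Casp4, Casp12 and the retinal gene Rp1 had none, and all 5 are in sparse windows, of chromosomes 15, 9 and 1. The 3 caspase genes are neighbours on chromosome 9. C7, a complement component on chromosome 15, had a fold of 6.73 at its end, and Rp1 held 25 summits over 294 kb, the highest of fold 7.81. The 95% Clopper-Pearson intervals of all 6 lists include the share of 82.3% over all autosomal genes, the lowest, this mixed list, having 54.5% (23.4% to 83.3%), and no list was tested. Median summits per kb were 0.279 for signalling genes, 0.475 for transcription factors, 0.169 for chromatin proteins, 0.165 for the imprinted cluster, 0.511 for mitochondrial proteins and 0.092 for the mixed list. The median was 0.380 over the 606 genes of the windows and 0.404 over all 20560 autosomal genes. Among genes wholly in the windows it was 0.312 for those of at least 10 kb and 0.200 for those of at least 100 kb. The lists were not matched for gene length, so their medians are not directly comparable with those over all genes.

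Promoter windows of RefSeq were found for 481 genes of the windows, with 623 annotated starts. No start was listed for the windows of chromosomes 1, 3 and 18 and only 3 for that of chromosome 4, while chromosome 19 had 105, so the share leaves out some of the sparse windows. A summit lay in 138 of the 623, 22.2% (18.9% to 25.6%), and in 22.8% of 19440 starts on the rest. In both sets the share was highest at an intermediate base composition. Below 45% G and C the share was 1.41% in the windows and 0.995% on the rest, from 45% to 55% it was 14.9% and 17.4%, and from 55% to 65% it was 35.2% and 33.9%. At 65% and above it was 22.7% (16.1% to 30.5%) and 29.3% (28.1% to 30.6%).

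Library 2 had 6 peaks in the windows, of 118 on autosomes, and none of the 6 overlapped a library 1 peak. Of the 112 library 2 peaks elsewhere on autosomes, 7 did, 6.25% (2.55% to 12.5%). Library 1 peaks covered 6.19% of the bases on the rest of the autosomes and 5.73% of the bases of the windows. A count of 0 among 6 cannot be told apart from these shares. The strongest, chr17:4626173-4626566, had a fold of 27.4 and lay in the long non-coding RNA gene Gm34259, 165 bp from the nearest library 1 peak. Chromosome 2 had one at chr2:3964516-3964602 with a fold of 21.4 and one at chr2:3050260-3050348 with a fold of 4.48. The other 3 lay close together on chromosome 11, between 3103969 and 3122320, with folds of 10.55, 8.80 and 7.59. Folds of the libraries come from separate runs of the caller and were not compared in size.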

How the data were processed

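The data are MACS2 narrowPeak lists, 1 per library, from anti-GFP ChIP-seq of embryo heads. Per the submitters' processing notes, the tools were MACS2 2.1.0, Bowtie 1.1.2, Trimmomatic 0.33 and bcl2fastq 2.17, with mm10 and hg38 as builds. Their roles and settings, and the control used, are not given in the sources used here. Each deposited peak has a position, a score of 10 times −log10 q, a fold enrichment as a ratio, and −log10 p and q values that the authors' caller computed. Coordinates are those of mm10, counted from 1.

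Summit pileup and background were solved from the deposited fold and −log10 p-value with a tolerance of 0.002, and a whole pileup was recovered for 100% of peaks. Read depth is not given in the files. Autosomes were tiled in 3 Mb windows from 3 Mb, giving 812 windows, of which 793 are complete. Peak numbers were fitted by quasi-Poisson regression and window medians by linear models (statsmodels 0.14.6, scipy 1.17.1, pandas 2.3.3, Python 3.11.15). Single windows were tested by an exact binomial test within the chromosome at an adjusted p of 0.05. The scripts were tested on simulated data. Intervals on shares are Clopper-Pearson, on counts exact Poisson, at 95%, and cover counting error only.

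Genes came from a RefSeq table of GRCm38.p6, with 20560 autosomal protein-coding genes, without strand or exons, and a gene belongs to the window that holds its midpoint. Named in the text are the peak of highest fold in each window, the 3 widest peaks, the 5 genes of at least 10 kb with most summits per kb, the genes of at least 100 kb with fewest, and the members of 6 lists. One gene that this rule names is not reported here. Other genes named beside a count were chosen after their values were seen. The members and lists were chosen with earlier results of these data known. Alternatives changed the q threshold, the window, the chromosomes left out, the rest, the length, the summit, the measure of genes and the distance to gene ends.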

Additional observations from a re-analysis of the deposited data

How the results depend on the processing

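Leaving out each chromosome in turn gave a density ratio from 0.828 to 0.932, a ratio with gene density from 0.771 to 0.830, a width difference from 1.53 to 5.76 bp and a fold difference from -0.03 to -0.01. With gene density in the fit, the adjusted ratio of 0.80 lost its call without chromosome 1, 4, 5, 6, 7, 8, 9, 13, 14 or 15. It also lost the call with a window of 3 to 9 Mb (0.859), without the last complete window of each chromosome (0.809), with the share of bases in genes (0.939) and without the chromosome 14 window (0.830). The cause of these losses was not tested. The adjusted ratio kept the call with a −log10 q of at least 5 (0.808), a window of 3 to 5 Mb (0.754) and all annotated genes (0.803). The share of genes with a peak at an end was 51.8% with a −log10 q of at least 5 and 93.7% with 5 kb around the ends, beside 50.8% and 93.9% on the rest. With a −log10 q of at least 5, peaks at an end fell to 11 signalling, 6 transcription factor and 2 chromatin genes. They fell to 2 imprinted-cluster and 4 mitochondrial genes, and to 3 genes of the mixed list. Calls of sparser windows ran from 11 to 14 and of denser windows from 4 to 5 over the alternatives run. The ratio without gene density, the width and the fold stayed on the same side of the threshold in each alternative run. No paired analysis was possible because both libraries form 1 group and the labels name no contrast. Median pileups of 15 limit what the fold of a single peak can show. Gaps, repeats and base composition of the peaks were not analysed here.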
